A study of Mus musculus with 8 samples.

Results

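The genes described here are the 10 core genes of the mammalian circadian clock, measured in 8 mouse liver samples. They were chosen by name from the list Arntl, Clock, Npas2, Per1, Per2, Per3, Cry1, Cry2, Nr1d1 and Nr1d2. All 10 of 10 were found among the 25078 genes of the deposited table, and all 10 were among the 14438 genes with enough counts to be tested. The RNA came from 5 wild-type livers and 3 livers labelled Het, whose genotype label reads Midn hemizygotes. Midn encodes midnolin, a protein that carries nuclear proteins to the proteasome for degradation without ubiquitin. All 8 samples, controls included, came from male C57/BL6 mice kept for 25 weeks on a Western-style diet high in fat, fructose and cholesterol. The labels give no time of day of collection, litter or batch, and do not say that each sample is a different animal. The p-values below therefore measure the spread between these 8 samples.

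The clock is a feedback loop of transcription. ARNTL (also called BMAL1) pairs with CLOCK, or with its relative NPAS2, and the pair binds E-box sequences to switch on the Per, Cry and Nr1d genes. PER and CRY proteins then enter the nucleus and block that pair, while the nuclear receptors NR1D1 and NR1D2 (REV-ERB alpha and beta) compete with ROR receptors at RORE sequences to repress Arntl, Clock, Npas2 and Cry1. Another element, the D-box, is bound by DBP, TEF and HLF, which activate, and by NFIL3, which represses. In mouse liver the activator Arntl peaks near the end of the night while Nr1d1, and later the Per genes, peak during the day and early evening, so the level of most of these genes depends on the hour of collection.

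Promoter sequences from RefSeq on GRCm38.p6, 250 bases before the start, are printed for 4 members. Matches to the letters of clock elements named above are in capitals. The table of promoters held 9 of the 10 members; Per2 was not among them. The motifs searched on both strands were CACGTG for the E-box, TTATGNAA for the D-box and TNGGTCA for the core of the RORE, and no match overlapped another. Of all 32851 promoters in the table, 6.02% held the E-box, 3.07% the D-box and 9.19% the loose RORE core. Arntl is shown for its pair of matches to the loose RORE core and Per1 for an E-box and a D-box. Per3 is shown for its D-boxes and Cry1 for an E-box close to the start.
Arntl, chr7:113207215-113207464, plus strand: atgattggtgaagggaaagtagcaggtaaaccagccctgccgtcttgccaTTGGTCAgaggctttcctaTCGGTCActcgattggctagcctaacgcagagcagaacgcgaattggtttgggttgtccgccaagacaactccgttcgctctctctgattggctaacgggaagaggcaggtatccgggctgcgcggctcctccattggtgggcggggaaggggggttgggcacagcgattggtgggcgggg
Per1, chr11:69098699-69098948, plus strand: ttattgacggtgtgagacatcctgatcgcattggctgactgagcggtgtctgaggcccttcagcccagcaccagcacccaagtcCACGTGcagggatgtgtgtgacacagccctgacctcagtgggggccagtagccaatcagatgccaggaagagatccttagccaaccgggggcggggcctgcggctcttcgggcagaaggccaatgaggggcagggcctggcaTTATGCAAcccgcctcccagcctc
Per3, chr4:151044666-151044915, minus strand: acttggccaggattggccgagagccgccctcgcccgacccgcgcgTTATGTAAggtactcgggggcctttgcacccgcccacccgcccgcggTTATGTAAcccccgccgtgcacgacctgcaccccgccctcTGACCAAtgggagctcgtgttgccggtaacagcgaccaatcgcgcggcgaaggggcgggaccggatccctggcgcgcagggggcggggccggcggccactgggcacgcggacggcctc
Cry1, chr10:85185055-85185304, minus strand: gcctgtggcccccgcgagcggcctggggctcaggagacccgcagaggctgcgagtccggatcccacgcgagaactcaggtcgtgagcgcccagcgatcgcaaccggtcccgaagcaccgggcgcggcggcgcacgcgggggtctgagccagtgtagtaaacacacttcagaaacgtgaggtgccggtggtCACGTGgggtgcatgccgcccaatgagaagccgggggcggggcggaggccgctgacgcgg

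In Arntl the matches to the loose RORE core began 200 and 181 bases before the start used here. The E-box of Per1 began 166 bases before the start and its D-box 24 bases before it, and the E-box of Cry1 began 60 bases before it. Per3 held D-boxes beginning 205 and 158 bases before the start. It also held a match to the loose RORE core on the other strand, beginning 118 bases before the start. Cry2 held 1 match to the loose RORE core, also on the other strand, 133 bases before its start. The windows of Clock, Npas2, Nr1d1 and Nr1d2 held none of these letters, which says nothing of elements elsewhere. Arntl and Per1 also have another RefSeq start. Before that of Arntl the same matches began at 246 and 227 bases, and the window before that of Per1 held none of these letters.

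The libraries held 17508221 to 24916239 counts. Levels are given as CPM, which are counts relative to library size scaled by edgeR's trimmed mean of M-values (TMM), and differences as edgeR's log2 fold change of het-labelled minus wild-type livers. Midn itself did not separate the genotypes: it stood at 68.7, 39.8, 71.5, 41.7 and 29.3 CPM in wild-type libraries 1 to 5 and at 60.4, 39.1 and 51.7 CPM in the 3 het-labelled ones, a log2 difference of 0.00 (95% interval -0.68 to 0.69, edgeR adjusted p = 0.994), so the groups are called by their label. The wild-type libraries also differed in Rpph1, the RNA of RNase P, which took 0.304% and 0.331% of counts in wild types 3 and 1, 0.673% to 1.06% in wild types 2, 4 and 5, and 0.229% to 0.399% in the het-labelled livers. The labels do not name a batch that matches this split, so member values are also given against each of these wild-type sets. Summed hepatocyte markers ran from 33971 to 41587 CPM in wild type and 36946 to 66016 CPM in het-labelled livers, with 5 of 6 markers above 0 (median log2 difference 0.45). Bile duct markers ran from 406 to 890 CPM in wild type and 147 to 742 CPM in het-labelled livers, with all 6 below 0 (median -1.01). Summed markers of macrophages (258 to 595 against 317 to 331 CPM), stellate cells (840 to 1051 against 633 to 1163 CPM) and endothelium (297 to 366 against 321 to 456 CPM, 6 of 6 above 0, median 0.28) overlapped between groups. T and NK markers summed to 4.61 to 18.9 against 5.34 to 9.31 CPM, with 6 of 6 below 0 (median -0.81). B-cell markers summed to 5.00 to 8.33 against 2.26 to 4.79 CPM without overlap, with 4 of 4 below 0 (median -0.65). Each of the 4 alone overlapped between groups, at 7 to 79 counts a library. Of all genes tested singly, 2.32% lay lower in every het-labelled liver. Single markers that lay higher in every het-labelled liver were the hepatocyte marker Ttr (1128 to 1879 against 1974 to 2910 CPM) and the stellate marker Reln (143 to 205 against 207 to 260 CPM). Such separation was seen for 7.54% of all genes tested. None of the markers was at 0 in all libraries and 0 passed the test. Their part in the results below was not tested, and in whole liver fewer cells of a type and less RNA per cell cannot be told apart.

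None of the 10 core clock genes passed the test between genotypes. Among all genes tested 0 passed as well (0.0%), the lowest adjusted p being 0.259. In 8 of the 10 the log2 difference was above 0, against 50.4% of all genes tested, and the median over the members was 0.33 against 0.00 for all genes. This count and median moved with single libraries and with scaling: they were 6 of 10 and 0.14 without het-labelled liver 1, 7 of 10 and 0.20 without wild type 2, and 5 of 10 and 0.10 with library size alone as scaling. Cry1 and Per2 were the 2 members with an unadjusted p under 0.05, both on the side of higher values in het-labelled livers. That threshold was met on this side by 10.3% of all genes tested, on the other side by 5.43% and on either by 15.7%. Cry1 and Per2 were also the 2 members in which every het-labelled liver lay above every wild-type liver. This separation was seen for 7.54% of all genes tested, and the opposite one, seen in none of the members, for 2.32%.

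**Figure D1:**
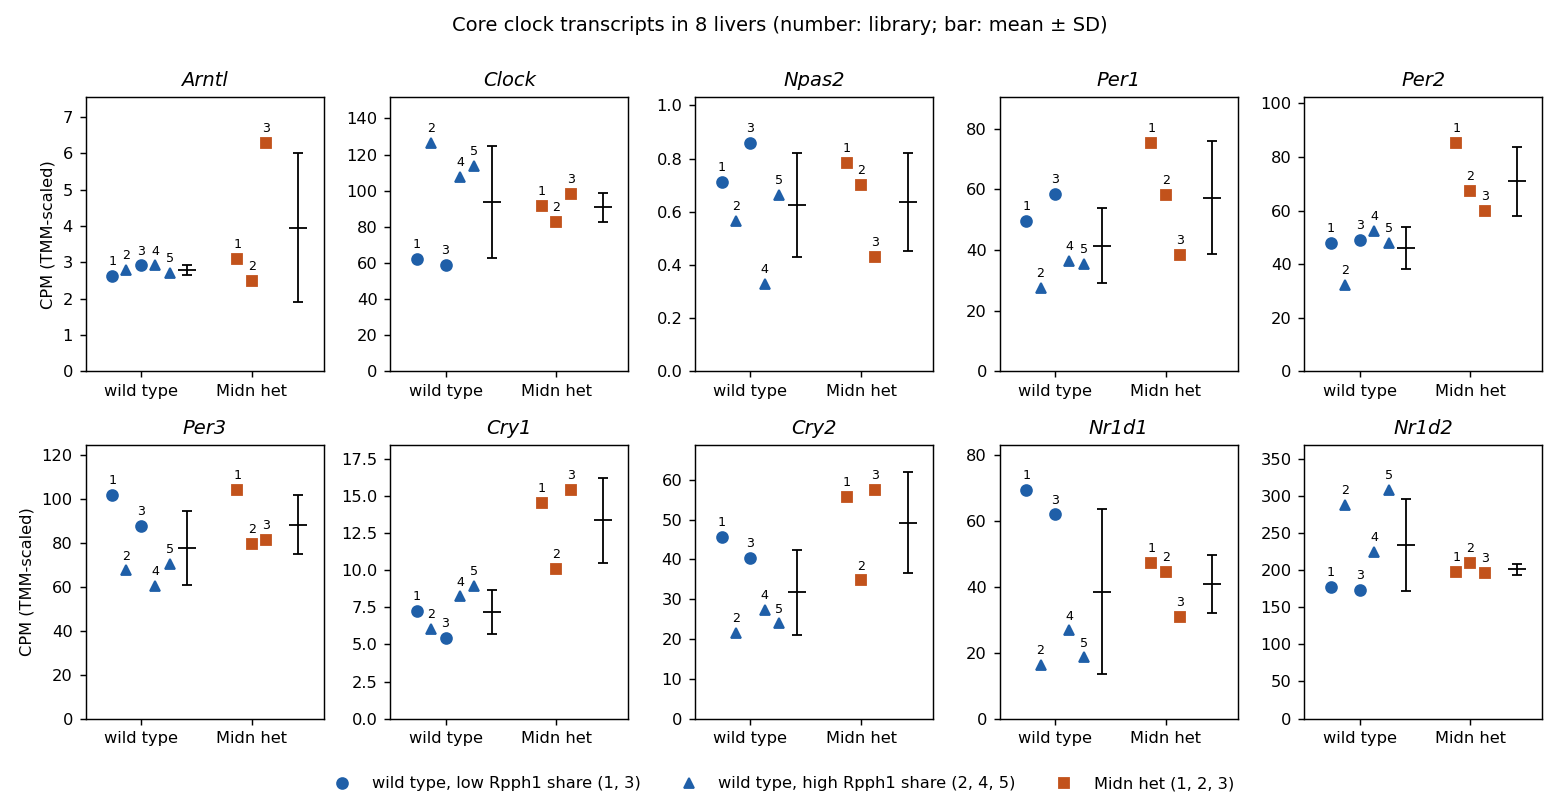
Level of each core clock gene in each liver, in TMM-scaled CPM on linear axes that start at 0; circles are wild types of low Rpph1 share, triangles wild types of high share and squares het-labelled livers, numbered by library, and bars give the mean ± SD of each group. Cry1 and Per2 are the panels in which the 3 het-labelled points all lie above the 5 wild-type points, and Nr1d1 spans 16.2 to 69.2 CPM within wild type alone.

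Per length of transcript, in the authors' RPKM (reads scaled to transcript length and library size), Nr1d2 was the most abundant member at 46.3 ± 9.88 (SD over the 8 livers). Nr1d1 (13.96 ± 7.20 RPKM), Per3 (13.1 ± 2.63), Per1 (9.81 ± 3.33), Cry2 (9.33 ± 3.35), Per2 (9.21 ± 2.56) and Clock (9.04 ± 2.19) followed. Among these, neighbours in the order had means within their SDs of each other, except Per3 and Per1. Per3 lay above Per1 in every liver. The SDs do not use the pairing of genes within a liver. Cry1 stood at 3.05 ± 1.15 RPKM, Arntl at 1.07 ± 0.406 RPKM and Npas2 at 0.147 ± 0.0437 RPKM, each step larger than the SDs involved. Among the activators, then, Clock RNA was the most abundant and its partner Arntl stood lower in these livers.

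Arntl (chromosome 7, 113207465 to 113314126, plus strand, mm10) encodes the activator that the loop cannot do without. In wild-type livers 1 to 5 it stood at 2.62, 2.78, 2.91, 2.91 and 2.71 CPM, and in the het-labelled livers at 3.09, 2.48 and 6.29 CPM. The wild types were almost level, het-labelled liver 2 lay below all of them, liver 1 slightly above, and liver 3 at more than any other liver. The log2 difference was 0.50 (SE 0.31, 95% interval -0.19 to 1.19), with an adjusted p of 0.42 and an exact permutation p of 0.196 over the 56 assignments of 8 livers to groups of 5 and 3, two-sided, of which the smallest possible is 0.0179. Without het-labelled liver 3 the log2 difference was 0.0031. The counts behind that liver numbered 132, with an exact Poisson interval of 5.26 to 7.46 CPM, which does not meet the 2.39 to 3.92 CPM of het-labelled liver 1 (67 counts). Both intervals cover counting error only.

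The evenness of Arntl in wild type set it at the 1.02 percentile of all tested genes by SD of log2 CPM, 0.064 against a median of 0.35. Its SD across the 5 wild types, 0.128 CPM, was smaller than the SD of 0.371 CPM that counting alone gives at this depth. By contrast Nr1d1 stood at the 93.6 percentile with an SD of 0.97, Clock at 71.3 with 0.52 and Per2 at 36.9 with 0.28.

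Clock (chromosome 5, 76209868 to 76304792, minus strand) encodes the acetyltransferase partner of ARNTL. Its wild-type levels were 62.1, 126.5, 59.0, 107.5 and 114 CPM, and its het-labelled levels 91.4, 82.5 and 98.4 CPM. All 3 het-labelled livers lay between the low wild types 1 and 3 and the high wild types 2, 4 and 5. The log2 difference was -0.05 (SE 0.27, 95% interval -0.66 to 0.57, adjusted p = 0.935). Npas2 (chromosome 1, 39194272 to 39363240, plus strand), the relative that can stand in for CLOCK, rested on 6 to 23 counts a library. Its levels were 0.626 ± 0.196 CPM (SD, n = 5) in wild type and 0.637 ± 0.185 CPM (SD, n = 3) in het-labelled livers, and the wild-type SD was close to the 0.172 CPM that counting gives. At that depth a log2 difference anywhere from -0.89 to 0.92 was within its 95% interval.

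Cry1 (chromosome 10, 85131700 to 85185054, minus strand) encodes a cryptochrome, the strongest repressor of the ARNTL and CLOCK pair, and had the largest difference of the 10. Wild-type livers held 7.28, 6.03, 5.42, 8.24 and 8.97 CPM and het-labelled livers 14.6, 10.1 and 15.4 CPM. No het-labelled liver reached down to the wild types, the nearest being het-labelled liver 2 and wild type 5. The log2 difference was 0.90 (SE 0.22, 95% interval 0.41 to 1.39), with an unadjusted p of 0.0024, an edgeR adjusted p of 0.259 and an exact permutation p of 0.0179, the smallest that this design can give. DESeq2 gave 0.86 with an adjusted p of 0.0581, where it called 0.694% of genes higher and 0.528% lower and none of the 10 members. Leaving out 1 liver at a time kept the log2 difference between 0.77 and 1.07.

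Cry2 (chromosome 2, 92403647 to 92434069, minus strand), the other cryptochrome, stood at 45.7, 21.5, 40.3, 27.4 and 23.9 CPM in wild type and 55.6, 34.7 and 57.4 CPM in het-labelled livers. Het-labelled livers 1 and 3 exceeded every wild type, and liver 2 fell among them. The same 2 livers stood apart in cell-type markers, with hepatocyte sums of 66016 and 55970 CPM against 36946 CPM in liver 2. Their bile duct sums were 147 and 158 CPM against 742 CPM. Cry1 was also higher in these livers, at 14.6 and 15.4 CPM against 10.1 CPM in liver 2, as were Hlf, Bhlhe40 and Nfil3, described below. In Per1, Per2 and Usp2 liver 2 lay between the others instead. The part of cell-type markers in these genes was not tested. The log2 difference was 0.63 (SE 0.28, 95% interval -0.01 to 1.27, adjusted p = 0.321, exact permutation p = 0.0893). Against wild types 1 and 3 alone it was 0.13. A transcript on the opposite strand, D930015M05Rik, shares 295 exonic bases (4.67%) with Cry2 in GENCODE M21, and the sources do not say whether counting used strand.

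Per2 (chromosome 1, 91415982 to 91459328, minus strand) encodes the period protein that carries the repressor complex, and its gene also responds to glucocorticoid and temperature cues. It stood at 47.8, 32.3, 49.1, 52.4 and 48.0 CPM in wild type and 85.3, 67.3 and 59.9 CPM in het-labelled livers. Apart from wild type 2, which was low, the wild types lay within a narrow range that ended below the lowest het-labelled liver. The log2 difference was 0.63 (SE 0.19, 95% interval 0.21 to 1.04), with an unadjusted p of 0.0081, an edgeR adjusted p of 0.259 and an exact permutation p of 0.0179. Leaving out 1 liver at a time moved it between 0.48 and 0.74.

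Per1 (chromosome 11, 69098949 to 69109957, plus strand), whose window above holds both an E-box and a D-box, stood at 41.4 ± 12.4 CPM (SD, n = 5) in wild type and 57.3 ± 18.6 CPM (SD, n = 3) in het-labelled livers. Het-labelled liver 1 had the highest level at 75.4 CPM, while liver 3 at 38.3 CPM overlapped the wild types, which ran from 27.4 to 58.5 CPM. The log2 difference was 0.47 (SE 0.28, 95% interval -0.17 to 1.11, adjusted p = 0.42). It was 0.23 without het-labelled liver 1, 0.69 without het-labelled liver 3 and 0.30 without wild type 2. Per3 (chromosome 4, 151003655 to 151044665, minus strand), which tunes the period rather than sustaining the loop, stood at 77.6 ± 16.8 CPM in wild type and 88.3 ± 13.6 CPM in het-labelled livers, a log2 difference of 0.19 (SE 0.20, 95% interval -0.26 to 0.63, adjusted p = 0.618). The groups overlapped for both genes.

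The receptors of the stabilising loop differed among wild types more than between genotypes. Nr1d1 (chromosome 11, 98767932 to 98775377, minus strand) stood at 69.2, 16.2, 61.9, 26.7 and 18.5 CPM in wild type and 47.1, 44.4 and 30.8 CPM in het-labelled livers. All 3 het-labelled livers lay in the gap between wild types 1 and 3, which were high, and wild types 2, 4 and 5, which were low. The log2 difference over all 8 livers was 0.08 (SE 0.49, 95% interval -1.03 to 1.19, adjusted p = 0.937). Nr1d2 (chromosome 14, 18204056 to 18239106, minus strand), its paralog, showed the reverse order at 177, 287, 173, 224 and 307 CPM in wild type and 197, 209 and 197 CPM in het-labelled livers. The log2 difference of Nr1d2 was -0.22 (SE 0.23, 95% interval -0.73 to 0.29, adjusted p = 0.615), and again the het-labelled livers lay between the wild-type sets. Exons of Nr1d1 overlap those of Thra on the opposite strand by 263 bases (8.55% of the exonic bases of Nr1d1).

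For 5 members the sign of the genotype difference depended on which wild types were compared. In Nr1d1, Clock and Nr1d2 all 3 het-labelled livers lay between the wild-type sets. Opposite signs against the sets were thus fixed in advance for these genes and are not a separate result. The same 3 het-labelled libraries enter both comparisons, which are set side by side here. Their Rpph1 share of 0.229% to 0.399% lies below the 0.673% to 1.06% of wild types 2, 4 and 5. Against those wild types, genotype label and Rpph1 share cannot be told apart. The wild-type sets were also drawn from these same data. Nr1d1 was 0.95 (SE 0.23) higher on the log2 scale in het-labelled livers than in wild types 2, 4 and 5, with an edgeR adjusted p of 0.0343, and -0.74 (SE 0.20) against wild types 1 and 3, with an adjusted p of 0.0830. Clock was at -0.40 (SE 0.12, adjusted p = 0.0560) against the first set and 0.52 (SE 0.11, adjusted p = 0.0677) against the second. Nr1d2 was at -0.49 (adjusted p = 0.0625) and 0.14 (adjusted p = 0.478). Per3 (0.37 and -0.17) and Npas2 (0.25 and -0.36) also took opposite signs, with adjusted p-values of at least 0.0888.

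For Cry1 and Per2, whose het-labelled livers lie above every wild type, a positive sign against either set is fixed in advance. Cry1 was at 0.74 (SE 0.22, adjusted p = 0.0495) against wild types 2, 4 and 5 and 1.01 (SE 0.24, adjusted p = 0.0744) against wild types 1 and 3. Per2 was at 0.63 (adjusted p = 0.0634) and 0.49 (adjusted p = 0.115). Cry2 was 0.97 higher (SE 0.20, adjusted p = 0.0283) against the first set and 0.13 (adjusted p = 0.703) against the second, and Per1 was at 0.75 (adjusted p = 0.0632) and 0.02 (adjusted p = 0.961). Arntl was at 0.45 against either set (adjusted p = 0.403 and 0.499). Against wild types 2, 4 and 5 the members past the threshold were thus Cry1, Cry2 and Nr1d1, all higher. There 8.4% of genes tested passed as higher and 10.5% as lower, and genotype label and Rpph1 share cannot be told apart. Against wild types 1 and 3 no member passed, where 0.0956% of genes passed as higher and 0.0478% as lower.

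**Figure D2:**
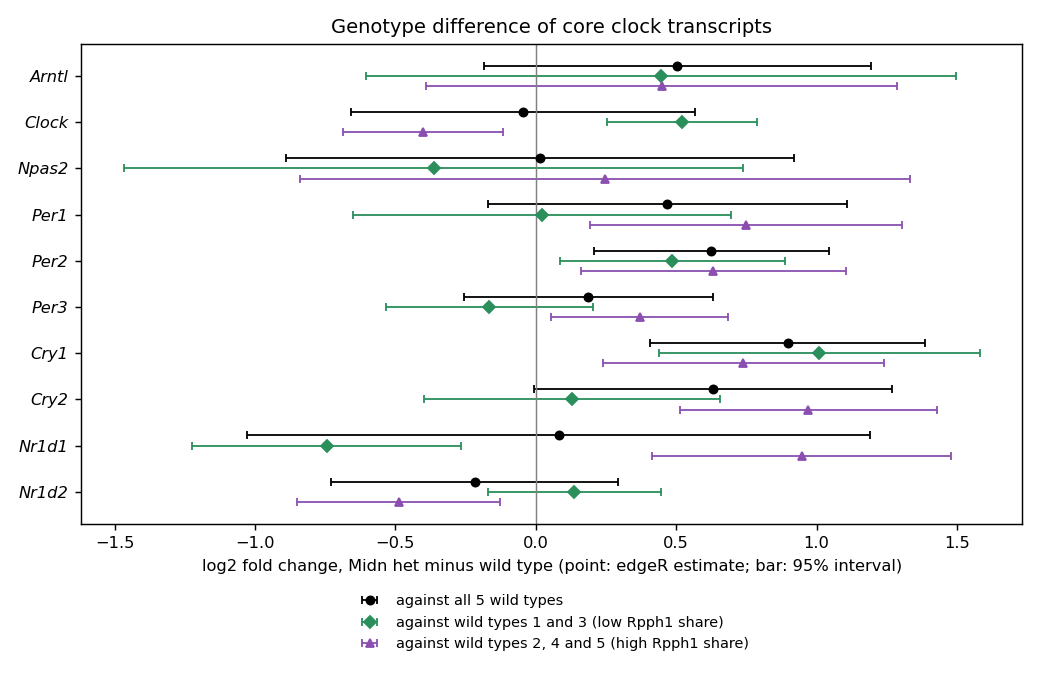
Log2 fold change of het-labelled over wild-type livers for each core clock gene, with all 5 wild types and with each wild-type set alone; points are edgeR estimates and bars their 95% intervals. Estimates of Arntl, Per1, Per2, Cry1 and Cry2 lie above 0 in all 3 comparisons. Those of Clock, Npas2, Per3, Nr1d1 and Nr1d2 lie on opposite sides of 0 in the 2 smaller ones. For Clock, Nr1d1 and Nr1d2 this was fixed by the place of the het-labelled livers between the wild-type sets. Whole intervals lie above 0 throughout for Cry1 and Per2, whose sign was fixed by the separation of the groups.

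Within wild type, 7 of the 10 members (70.0%) had no overlap between libraries 2, 4 and 5 and libraries 1 and 3. Of all genes tested 62.9% did, 31.1% with the former higher and 31.8% with the former lower, so the members' share was near the background. Nr1d1 averaged 65.5 CPM in wild types 1 and 3 and 20.5 CPM in wild types 2, 4 and 5, a 3.20-fold difference. Per1 (-0.71), Cry2 (-0.83), Per3 (-0.52) and Npas2 (-0.55) also had lower log2 levels in libraries 2, 4 and 5, whereas Clock (0.93) and Nr1d2 (0.63) had higher ones. Arntl (0.02), Per2 (-0.16) and Cry1 (0.28) overlapped.

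These wild-type differences ran with the GC content of the transcript, taken from the longest coding transcript in GENCODE M21. Clock (40.9% GC) and Nr1d2 (41.8%) are the most AT-rich members and were the ones higher in libraries 2, 4 and 5, while Per1 (59.4%), Nr1d1 (56.8%) and Cry2 (55.6%) are the most GC-rich and had the largest differences in the other direction. Across the 10 members Pearson's r between GC content and the log2 difference was -0.85, and across the 13456 tested genes with a GC value (93.2%) it was -0.45. All values come from the same 5 libraries, and genes are not independent replicates. The median log2 difference over all genes was 0.46 in the GC quartile with the lowest content (32.6% to 45.2%) and -0.44 in the highest (54.8% to 69.0%). Against transcript length on a log2 scale r was 0.51 for the members and -0.30 for all genes. Midn, at 59.3% GC, differed by -0.94 in the same direction as Nr1d1. The part of GC content or RNA quality in the members' values was not tested.

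**Figure D3:**
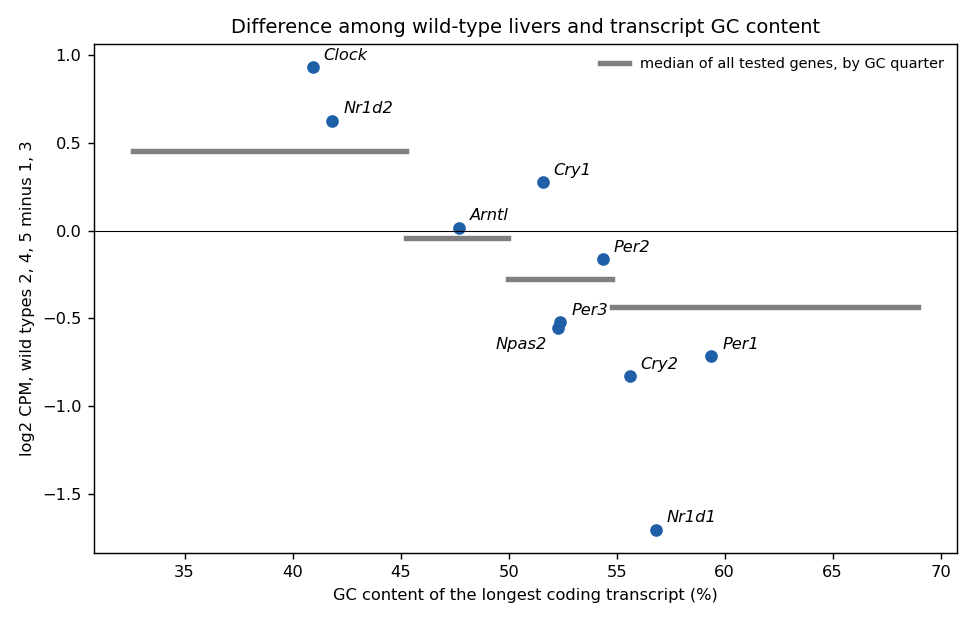
Log2 difference between wild-type libraries with a high Rpph1 share (2, 4 and 5) and a low one (1 and 3), against GC content of the longest coding transcript in percent; points are the core clock genes and grey bars the median of all tested genes in each GC quartile. Clock and Nr1d2 lie at the upper left and Per1, Cry2 and Nr1d1 at the lower right.

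Because the arms of the loop peak at different hours, the ratio of Arntl to the genes it drives was computed in each library. Library scaling cancels in it, but shifts of single genes do not. Per 100 counts of Nr1d1 there were 3.79, 17.2, 4.71, 10.9 and 14.6 counts of Arntl in wild types 1 to 5 and 6.55, 5.58 and 20.4 in the het-labelled livers, a 5.39-fold range. Wild types 1 and 3 and het-labelled livers 1 and 2 were at the low end, and the high end was shared by wild types 2 and 5 and het-labelled liver 3. Between wild types 2, 4 and 5 and wild types 1 and 3, Arntl differed by 0.02 and Nr1d1 by -1.70 on the log2 scale. The wild-type range of this ratio is therefore mostly that of Nr1d1. Per 100 counts of Per2 there were 5.48, 8.61, 5.93, 5.55 and 5.65 counts of Arntl in wild type and 3.62, 3.68 and 10.5 in het-labelled livers. Here 4 of the 5 wild types were nearly equal, het-labelled livers 1 and 2 lay below all of them and het-labelled liver 3 above. The ratio to Per1 ranged 4.01-fold and that to Per3 less, with het-labelled liver 3 highest in both at 16.4 and 7.72. Mean log2 ratios of het-labelled minus wild-type livers were 0.07 for Nr1d1, -0.08 for Per1, -0.24 for Per2 and 0.18 for Per3.

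A score of the mean centred log2 CPM of Arntl, Clock and Npas2 minus that of Per1, Per2, Per3, Nr1d1 and Nr1d2 was -0.39, 0.57, -0.26, 0.03 and 0.31 in wild type and -0.30, -0.28 and 0.31 in het-labelled livers. The genotypes overlapped, at 0.05 ± 0.39 (SD, n = 5) against -0.09 ± 0.35 (SD, n = 3). In the score, as in the ratio to Nr1d1, het-labelled liver 3 stood with wild types 2 and 5 and apart from the other het-labelled livers. The score contains both genes of that ratio, so the 2 measures are not independent. Wild types 2 and 5 had low Nr1d1 (16.2 and 18.5 CPM), whereas het-labelled liver 3 had high Arntl (6.29 CPM) with Nr1d1 at 30.8 CPM. Npas2, with few counts, weighed on single values of the score: without it wild type 4 moved from 0.03 to 0.31, level with wild type 5 at 0.30, and het-labelled liver 3 moved from 0.31 to 0.64.

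Across the 8 livers, 45 pairs of members were correlated on log2 CPM, each with an exact two-sided permutation test over all pairings. For Pearson's r, 2 pairs passed adjustment over the 45. The share of such pairs among other genes was not computed. Of all genes tested, 62.9% kept wild types 2, 4 and 5 apart from 1 and 3. The permutation treats the 8 livers as exchangeable despite that split, so the count is not read as particular to clock genes. Clock and Nr1d1 ran in opposite directions, with r = -0.94 (exact p = 0.00087, adjusted p = 0.0195) and Spearman's rho = -0.95 (exact p = 0.0011, adjusted p = 0.0513). Nr1d1 and Nr1d2 did so with r = -0.93 (exact p = 0.00084, adjusted p = 0.0195) and rho = -0.88 (exact p = 0.0072, adjusted p = 0.109). Leaving out the 2 livers farthest from the median of the first gene gave -0.95 and -0.84. Both pairs join the AT-rich and GC-rich ends of the members. With the livers centred within the sets of high and low Rpph1 share, which have 3 and 5 livers and so too few for an r of their own, the values were -0.87 and -0.72. With library size alone as scaling, the adjusted p of the 2 pairs was 0.0617 and 0.396. Under that scaling 3 other pairs passed instead, so which pairs passed depended on the scaling.

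**Figure D4:**
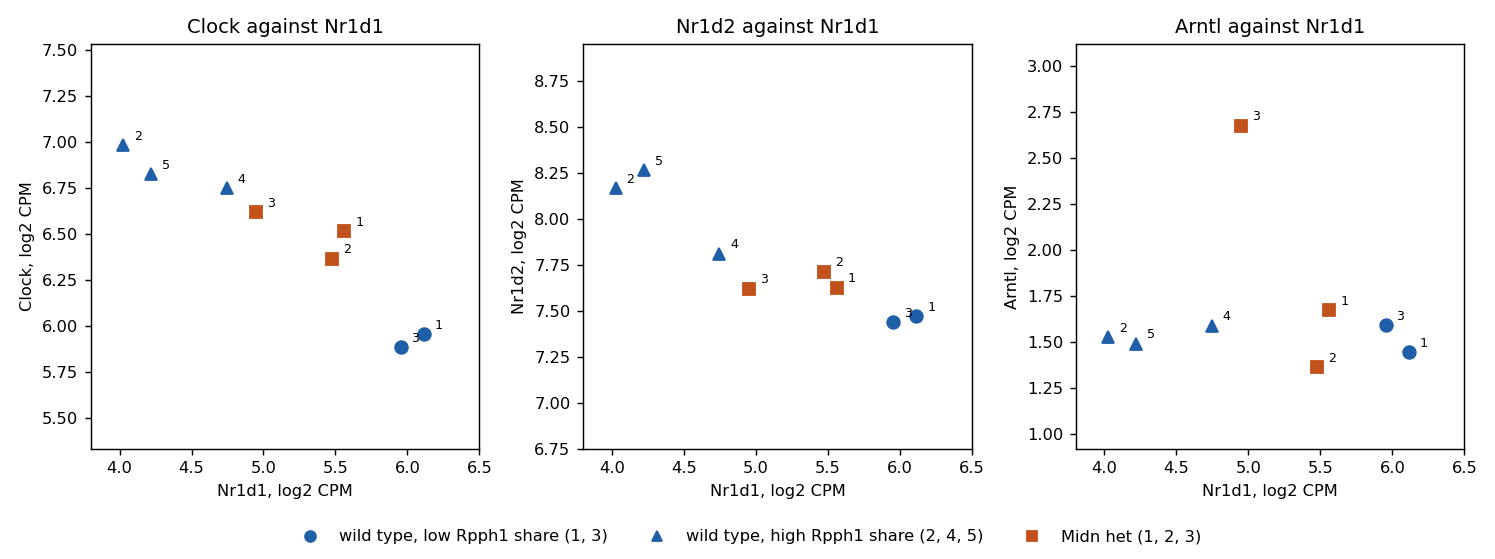
Log2 CPM of Clock, Nr1d2 and Arntl against log2 CPM of Nr1d1, 1 point per liver, with circles for wild types of low Rpph1 share, triangles for wild types of high share and squares for het-labelled livers. Clock and Nr1d2 fall from left to right, with r of -0.94 and -0.93, while Arntl is flat with r of -0.10 and 1 het-labelled liver far above the rest.

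Arntl and Nr1d1, the activator and the receptor that represses it, had an r of -0.10 (exact p = 0.876, adjusted p = 0.917) and a rho of 0.00 (exact p = 1, adjusted p = 1). Without het-labelled livers 2 and 3 r was 0.13. Per1 and Nr1d1, both E-box targets, had r = 0.83 (exact p = 0.0135, adjusted p = 0.108), 0.85 without the 2 farthest livers and 0.48 centred within Rpph1 sets. In all, 11 of 45 pairs had an unadjusted exact p under 0.05, a count that was 18 with library size alone as scaling and 17 with the deposited RPKM. The share among pairs of other genes was not computed here either.

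The genes whose log2 CPM followed Arntl most closely, among 10476 with a mean of at least 5 CPM, were Slc18b1 (r = 0.91), Sec24d (0.89), Ralgps2 (0.88) and Galnt2 (0.87). Those that ran most against it were Inhba (-0.96), Renbp (-0.94), Msantd2 (-0.92) and Pde1a (-0.92). Each rests largely on het-labelled liver 3: without it Slc18b1 was at 0.56, Sec24d at 0.46, Ralgps2 at 0.39 and Galnt2 at 0.11, and Inhba at -0.56, Renbp at -0.47, Msantd2 at 0.41 and Pde1a at -0.35.

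A list of 23 further clock genes was read by role. Rorb, a neural ROR receptor, had 1 count in all and was not tested. Of the 22 tested, none passed edgeR's test, 12 lay above 0 and 10 below, and the median log2 difference was 0.14. An unadjusted p under 0.05 was met by 4 on the higher side (Bhlhe40, Hlf, Nfil3 and Usp2) and 1 on the lower side (Arntl2), to be read against the 10.3% and 5.43% of all genes above. Every het-labelled liver lay above every wild type for Bhlhe40, Hlf and Usp2, 3 of the 22 against 7.54% of all genes tested, and below for Arntl2 and Prkaa1, 2 of the 22 against 2.32%.

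Rora, a receptor that activates Arntl, was at a log2 difference of -0.04. Of the D-box factors, Hlf stood at 50.2 ± 10.25 CPM (SD, n = 5) in wild type and 99.0 ± 20.6 CPM (SD, n = 3) in het-labelled livers, a log2 difference of 0.98 (edgeR adjusted p = 0.259). Hlf was the 1 clock gene of either list that DESeq2 called, at 0.94 with an adjusted p of 0.0177. The repressor Nfil3 was at 0.73 (edgeR adjusted p = 0.317), Dbp at 0.20 and Tef at 0.22. Bhlhe40, an E-box repressor, stood at 77.5 ± 18.4 against 115 ± 16.7 CPM, a log2 difference of 0.56 (edgeR adjusted p = 0.279), with its paralog Bhlhe41 at -0.27 and the repressor Ciart at 0.46. The value of Ciart rested on het-labelled liver 1, at 15.6 CPM: the other het-labelled livers, at 8.13 and 7.34 CPM, lay among the wild types (4.07 to 9.97 CPM), and without liver 1 the log2 difference was 0.042. It was 0.25 without wild type 2. Arntl2, a paralog of Arntl, was at -0.77 (edgeR adjusted p = 0.302).

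Among enzymes acting on clock proteins, the deubiquitinase Usp2 stood at 38.4 ± 8.87 CPM in wild type and 71.7 ± 21.6 CPM in het-labelled livers, a log2 difference of 0.90 (edgeR adjusted p = 0.259). The kinase Prkaa1, which marks cryptochromes for degradation, stood at 26.1 ± 0.66 against 23.3 ± 0.72 CPM (log2 difference -0.16, edgeR adjusted p = 0.469). The casein kinases were at -0.10 for Csnk1a1, 0.30 for Csnk1d and -0.33 for Csnk1e, and Gsk3b was at 0.27. The ubiquitin ligase components that act on PER and CRY proteins were at 0.30 for Fbxl21, 0.31 for Btrc and 0.07 for Fbxw11. Of the genes that link the clock to NAD metabolism, Sirt1 was at -0.04 and Nampt at -0.09, and Timeless and Tipin were at -0.17 and -0.04. Against wild types 2, 4 and 5 alone, 4 of the 22 passed: Hlf (0.87, adjusted p = 0.0375), Usp2 (0.97, adjusted p = 0.0485), Bhlhe40 (0.70, adjusted p = 0.0476) and Csnk1d (0.51, adjusted p = 0.0341), all higher. For Hlf, Usp2 and Bhlhe40, whose het-labelled livers lie above every wild type, the positive sign was fixed in advance. In that comparison 8.4% of all genes tested passed as higher and 10.5% as lower, and genotype label and Rpph1 share cannot be told apart. Against wild types 1 and 3, where 0.0956% and 0.0478% of genes passed, none of the 22 did.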

How the data were processed

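RNA-seq of 8 mouse liver samples was used, 5 wild type and 3 labelled Het. Per the submitters' processing notes, reads were demultiplexed with bcl2fastq 2.18.0.12, aligned with STAR and counted with HTSeq on mm10; the sources used here give no other version, annotation or strand setting. Per the labels' protocols, tissue was kept in RNAlater and libraries were made with an mRNA kit. The authors deposited whole-number read counts per gene and RPKM values for the same libraries. Of 25078 genes, 5912 had no count, and no other sample columns were present.

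Counts were tested with edgeR 4.0.16 (quasi-likelihood, robust, TMM, filterByExpr with a minimum count of 10 and a minimum total of 15), leaving 14438 genes, with Benjamini-Hochberg adjustment over all of them and a threshold of 0.05. TMM-scaled CPM of single genes was also compared by exact permutation. Correlations used log2 CPM with a prior count of 2. The script was tested on simulated data. DESeq2 1.42.0, limma 3.58.1, sva 3.50.0, other scalings and filters, and leaving out libraries were the alternatives. Replicates were numbered in accession order. All 10 members, Midn and the 23 regulators are named; 2 further genes first listed among the regulators are not reported here. The 4 genes most and least like Arntl were taken at a mean of at least 5 CPM, passing over predicted genes. The members and lists were chosen with earlier results of these data known. Promoter matches to a longer form of the RORE, with 3 more bases, were searched first and none was found in the members; the shorter core was chosen after that.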

Additional observations from a re-analysis of the deposited data

Results flagged for a closer look

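A library standing apart from the other 4 was looked for in 38 sets of 5 wild-type values. The sets were each clock gene tested, Midn, the Arntl ratios and the score of activators minus repressors. A library was marked where its gap to the nearest other value, divided by the whole range, was over Dixon's 95% critical value. Chance marks about 1 set in 20. Per2 in wild-type library 2 was such a value, at 32.3 CPM the lowest of the 5. Usp2 was lowest in the same library at 23.03 CPM. The log2 ratio of Arntl to Per2 counts was highest there, at -3.537. Prkaa1 was lowest in wild-type library 1, at 24.96 CPM.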

How the results depend on the processing

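No paired analysis was possible because replicate numbers came from accession order and pair no animals. Over the alternatives run, Arntl, Per1, Per2, Cry1 and Cry2 kept a log2 difference above 0, Arntl falling to 0.0031 without het-labelled library 3. The count of genes called, 0 in the reported fit, was 176 with DESeq2, 3 with 1 surrogate variable, 2632 without the wild types of low Rpph1 share and 21 without those of high share. Members called became 3, and regulators 4, without the low-share wild types, where genotype label and Rpph1 share cannot be told apart. Regulators called became 1 with DESeq2. Leaving out 1 library at a time called 0 to 0 genes, members or regulators. Genes with an unadjusted p under 0.05 numbered 2271, and 794, 3602 and 877 without het-labelled library 1, 2 or 3, and 1326 without wild type 2.
Signs reversed as follows, and the cause was not tested. Scaling by library size alone, which moved the median of all genes to -0.18 and left 5 of 10 members above 0 with a median of 0.10, gave Midn -0.26, Npas2 -0.20, Per3 -0.035, Nr1d1 -0.18, Dbp -0.026, Fbxw11 -0.11 and a correlation of Arntl with Nr1d1 of 0.14. DESeq2's size factors in edgeR gave Midn -0.041 and Npas2 -0.033, and DESeq2 itself Midn -0.032 and Npas2 -0.029. A minimum mean of 1 CPM, under which Npas2 is not tested, gave Midn -0.015, voom gave Clock 0.0047 and RPKM with a pseudocount of 1 gave Npas2 -0.0010. Without the high-share wild types Midn was -0.54, Clock 0.52, Npas2 -0.36, Per3 -0.17, Nr1d1 -0.74, Nr1d2 0.14, Rora 0.030, Dbp -0.19, Csnk1a1 0.071, Csnk1d -0.081, Btrc -0.021, Sirt1 0.22, Nampt 0.14 and Tipin 0.24. Without the low-share ones Bhlhe41 was 0.12, Csnk1e 0.077, Fbxw11 -0.015 and Timeless 0.26. Leaving out 1 library gave -0.14 to 0.17 for Midn, -0.22 to 0.040 for Clock, -0.16 to 0.24 for Npas2, -0.16 to 0.39 for Nr1d1, -0.11 to 0.036 for Rora, -0.14 to 0.020 for Sirt1, -0.51 to 0.033 for Timeless and -0.16 to 0.074 for Tipin. Depth limits Npas2 most, with 6 to 23 counts a library.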
